A study of Sus scrofa with 2 samples.

Results

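The collagen genes of pig skin other than its main fibril-forming collagens were examined in single cells. Genes were taken by symbol alone: every gene named COL, a number, A and a number was included, except COL1A1, COL1A2, COL3A1, COL5A1, COL5A2 and COL17A1. This rule found 33 of the 31908 genes in the matrices. Most of these genes encode collagens that do not build fibrils, but COL2A1, COL5A3, COL11A1, COL11A2 and COL27A1 encode fibrillar chains, so the group is nonfibrillar and minor by its rule rather than by structure. COL4A1 and COL24A1 are listed in the matrices by Ensembl identifier without a symbol (ENSSSCG00000044700 and ENSSSCG00000031738), so they were not members. Both are given for comparison. COL7A1, COL9A2 and COL20A1 were not found under these symbols and were not analysed here.

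The cells came from dorsal skin of young, healthy male farm pigs, with no age in days or months in the sources used here. Cells of the fresh group are labelled as untreated, and cells of the cryopreserved group were frozen in 90% FBS + 10% DMSO, kept in liquid nitrogen and thawed. Dissociation with the Miltenyi kit and 10x Genomics 3′ libraries were common to both groups, and dead cells and doublets were sorted out by FACS, with magnetic removal of dead cells as the named alternative. The protocol text given for both samples describes freezing and thawing, so the groups rest on the titles and treatment labels. Each group has 1 library, and it is not stated whether both came from the same animal. No test between groups was possible, and the 95% intervals below cover counting error only.

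Collagens are trimers of chains that share a repeated triple-helical stretch. Type IV collagen forms the network of basement membranes, in which COL4A1 pairs with COL4A2 while the other type IV genes give rarer networks. Type VI collagen makes beaded filaments around cells, types XII, XIV, XVI, XIX and XXI belong to the fibril-associated collagens with interrupted helices, types XV and XVIII are the multiplexins of basement membrane zones, and types XIII, XXIII and XXV span the plasma membrane. In skin, the dermal-epidermal junction and vessel walls carry basement membranes, and the dermis holds the fibrils that these minor collagens coat and link.

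Type IV genes lie in divergent pairs, and the sequence between the most abundant pair is shown because annotated transcripts of both genes start at its ends. Where transcription of these genes starts in the cells was not measured. In RefSeq's annotation of Sscrofa11.1, COL4A1 starts on the minus strand at chromosome 11 position 76997409 and a transcript of COL4A2 starts on the plus strand at 76997543. The annotated COL4A2 gene as a whole starts at 76996885, inside COL4A1, and its span covers the interval. The 133 bases between both starts, chr11:76997410-76997542 on the plus strand, have a GC content of 78.9%. They read, 5′ to 3′, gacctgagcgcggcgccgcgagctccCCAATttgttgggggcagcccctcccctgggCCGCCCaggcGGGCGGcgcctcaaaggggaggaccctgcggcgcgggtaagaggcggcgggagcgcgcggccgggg. The capitals mark matches to CCAAT and to GGGCGG on either strand. CCAAT occurs 1 time, on the plus strand from base 27, and 21.6% of the 19570 windows of 133 bases before protein-coding genes hold it. GGGCGG occurs 2 times, on the plus strand from base 68 and on the minus strand from base 58, against 39.1% of windows with a match. TATAAA had no match in these bases and was found in 5.26% of windows. COL4A3 and COL4A4 on chromosome 15 also start head to head, and their first exons overlap by 91 bases. COL4A5 and COL4A6 on chromosome X start 207898 bases apart.

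Cells within the study's maxima for genes, UMIs and mitochondrial share numbered 2775 of 4379 fresh and 4223 of 4860 cryopreserved barcodes, and 6 barcodes occurred in both libraries. These cells held 32274985 and 36687009 UMIs (unique molecular identifiers, which count each captured transcript once), with medians of 11017 and 7945 per cell. Clustering without collagen genes among its features gave 25 clusters, which were named "-like" from marker genes that include no collagen. Fibroblast-like cells numbered 1195 and 1556, mural-like cells (the muscle cells and pericytes of vessel walls) 246 and 372, keratinocyte-like cells 530 and 1058, and blood endothelial-like cells 201 and 270, in the fresh and cryopreserved library in turn. Lymphatic endothelial-like, macrophage-like, dendritic or Langerhans-like, T or NK-like and mast-like cells numbered 68 to 289 per library. At most 38 cells of a library stayed unnamed.

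The collagens of the group took 181013 fresh and 201085 cryopreserved UMIs, which was 0.561% and 0.548% of each library. The 5 excluded fibrillar genes COL1A1, COL1A2, COL3A1, COL5A1 and COL5A2 took 5.47% and 5.596%. COL6A1 alone held 38.9% of the group's UMIs in fresh and 41.0% in cryopreserved cells, and with COL6A3 the shares were 59.2% and 62.7%. Of the 33 genes, 23 had at least 200 UMIs over both libraries and are described with values. Fibroblast-like cells spent 1.01% (95% interval 1.007 to 1.017%) of their fresh and 1.08% (1.071 to 1.081%) of their cryopreserved UMIs on the group. Mural-like cells followed with 0.497% and 0.541%, blood endothelial-like cells with 0.170% and 0.209%, lymphatic endothelial-like cells with 0.138% and 0.140%, and keratinocyte-like cells with 0.0942% and 0.0844%. The share was 0.0249% and 0.0195% in T or NK-like cells, which should lack most of these transcripts.

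Each of the 23 genes was ranked over the 9 cell classes by its level in CPM, the UMIs of the gene scaled to a fixed total of UMIs of the class. The class with the highest level was the same in both libraries for 20 genes. In each of these 20 the interval of the highest class lay apart from that of the next class in both libraries. Fibroblast-like cells were highest for 11 genes, mural-like cells for 7, blood endothelial-like cells for COL15A1 and mast-like cells for COL19A1. The highest class of COL8A1, COL18A1 and COL23A1 differed between the libraries. The share of all genes with the same highest class in both libraries was not computed, so these counts do not set the collagens apart from other genes.

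**Figure D1:**
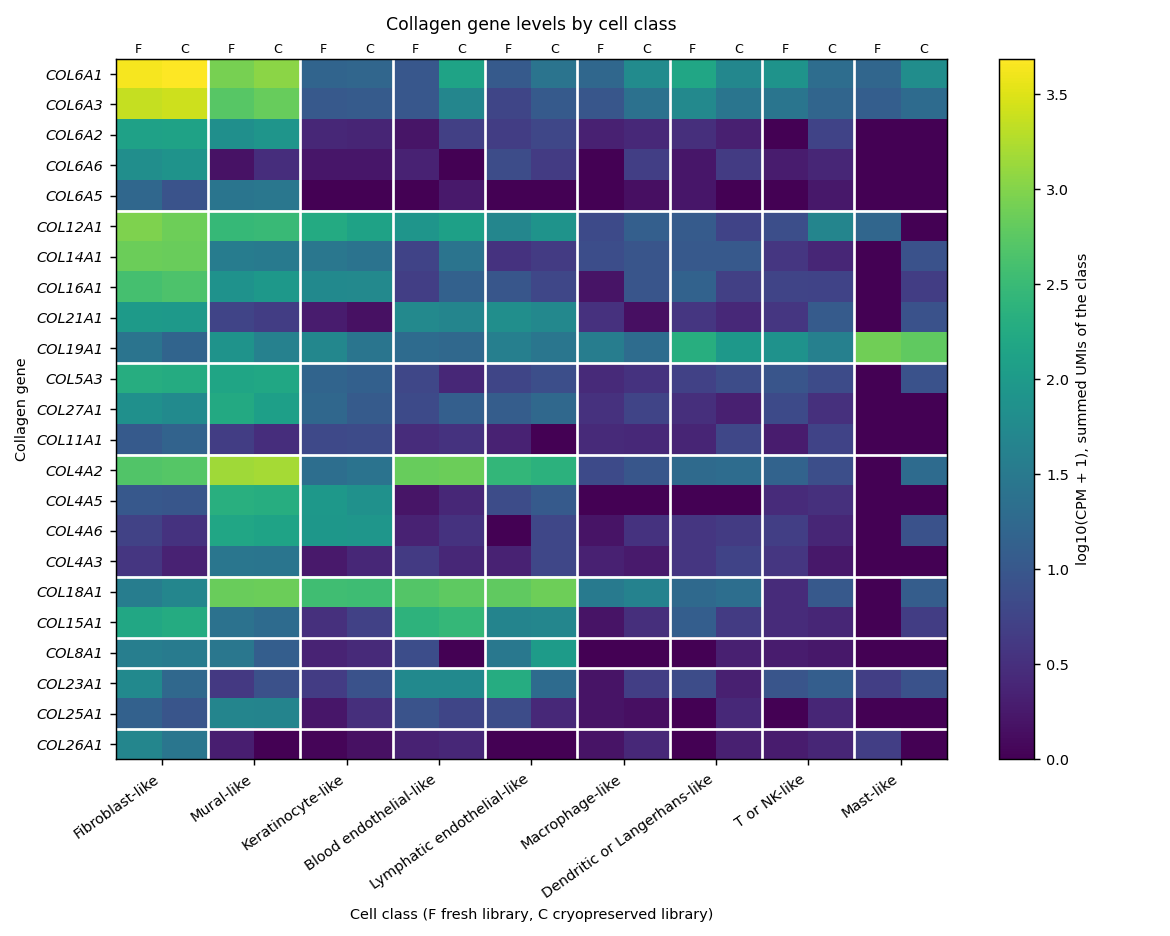
Level of the 23 collagen genes with at least 200 UMIs in 9 cell classes, as log10(CPM + 1) on the colour scale, with the fresh (F) and cryopreserved (C) library side by side and white lines between structural families and classes. Type VI genes other than COL6A5 and fibril-associated genes other than COL19A1 are brightest in fibroblast-like cells, COL6A5 and the type IV genes in mural-like cells, and COL19A1 in mast-like cells at 758 CPM (fresh) and 616 CPM (cryopreserved).

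Among the beaded-filament genes of type VI collagen, COL6A1 was the most abundant gene of the group. Its level in fibroblast-like cells was 4347 CPM (95% interval 4314 to 4379.6) in fresh and 4853 CPM (4819 to 4887) in cryopreserved cells. Mural-like cells held 853 and 1096 CPM, and keratinocyte-like cells 14.4 and 15.6 CPM. Blood endothelial-like cells had 8.92 and 137 CPM, and 5 cells carried 91.8% of their 171 cryopreserved UMIs. COL6A3 (chromosome 15, 137011549 to 137103687), whose chain carries the long amino-terminal arm of the trimer, was present at 2264 and 2559.8 CPM in fibroblast-like and 529 and 684 CPM in mural-like cells. COL6A1 made up 65.8% (95% interval 65.5 to 66%) of the fresh and 65.5% (65.2 to 65.7%) of the cryopreserved UMIs of the pair in fibroblast-like cells. In mural-like cells the same share was 61.7% (95% interval 59.9 to 63.6%) of the fresh and 61.6% (59.9 to 63.2%) of the cryopreserved UMIs. The share was thus slightly lower in mural-like cells, with intervals apart from those of fibroblast-like cells in both libraries. COL6A2, the chain that joins COL6A1 and COL6A3 in the classical trimer, was counted at 126 and 130.4 CPM in fibroblast-like cells. It was 2.81% (95% interval 2.69 to 2.93%) of the fresh and 2.62% (2.51 to 2.73%) of the cryopreserved UMIs of COL6A1 and COL6A2 together there, and 7.29% (95% interval 6.12 to 8.6%) of the fresh and 6.91% (5.89 to 8.03%) of the cryopreserved UMIs in mural-like cells. RefSeq lists COL6A2 on an unplaced scaffold, and the counts of a 3′ method follow the annotated gene end; their part in the low COL6A2 count was not tested.

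COL6A5 and COL6A6, which encode chains that can take the place of COL6A3, differed in the class where they were highest. COL6A6 reached 65.6 and 77.2 CPM in fibroblast-like cells and 0.52 and 2.08 CPM in mural-like cells. As a class, mural-like cells were highest for COL6A5 at 26 CPM (95% interval 19.3 to 34.3) in fresh and 27.6 CPM (20.7 to 36.1) in cryopreserved cells, and fibroblast-like cells had 16 and 7.67 CPM. Fibroblast-like cells still held 249 of its 303 fresh and 125 of its 181 cryopreserved UMIs. Of the UMIs of both genes, COL6A5 made up 98% (95% interval 89.6 to 99.95%) of the fresh and 93% (83 to 98.1%) of the cryopreserved UMIs in mural-like cells. In fibroblast-like cells it made up 19.6% (95% interval 17.5 to 21.9%) of the fresh and 9.04% (7.58 to 10.7%) of the cryopreserved UMIs. The genes lie next to each other in the annotation, COL6A6 at chromosome 13, 1817475 to 1985968 and COL6A5 at chromosome 13, 2029543 to 2174404.

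The basement membrane genes of type IV collagen were led by mural-like cells. COL4A2 (chromosome 11, 76996885 to 77161617) was measured there at 1460.4 CPM (95% interval 1407 to 1515) in fresh and 1569 CPM (1513 to 1626) in cryopreserved cells. Blood endothelial-like cells had 676 and 709.9 CPM of it, fibroblast-like cells 477 and 525 CPM, lymphatic endothelial-like cells 277 and 230.5 CPM and keratinocyte-like cells 20.3 and 24.3 CPM. COL4A1, its partner across the interval shown above, followed the same order of classes in both libraries, with 1216 and 1535 CPM in mural-like and 790.2 and 1067 CPM in blood endothelial-like cells. COL4A1 was 49.3% (95% interval 48.4 to 50.1%) of the fresh and 54% (53.3 to 54.8%) of the cryopreserved UMIs of the pair in fibroblast-like cells. In blood endothelial-like cells it was 53.9% (95% interval 51.9 to 56%) of the fresh and 60% (58 to 62.1%) of the cryopreserved UMIs, and in lymphatic endothelial-like cells 49.5% (95% interval 44.8 to 54.3%) of the fresh and 62.5% (57.3 to 67.5%) of the cryopreserved UMIs. The COL4A1 share was higher in the cryopreserved library in the fibroblast-like, mural-like, keratinocyte-like, blood and lymphatic endothelial-like classes, and the intervals of the libraries lay apart in each of these 5 classes. In keratinocyte-like cells the share was 20.3% in fresh and 37.4% in cryopreserved cells, where 5 cells held 52.9% of the 155 COL4A1 UMIs.

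COL4A5 and COL4A6, the X-linked pair, were highest in mural-like cells and present in keratinocyte-like cells, the epithelium that faces the dermal-epidermal basement membrane. COL4A5 stood at 213 and 195 CPM in mural-like and 89.9 and 71.9 CPM in keratinocyte-like cells, and COL4A6 at 152 and 137 and 87.4 and 86.5 CPM. Fibroblast-like cells held 9.21 and 8.78 CPM of COL4A5 and 4.25 and 2.46 CPM of COL4A6. COL4A5 made up 58.3% (95% interval 54.6 to 62%) of the fresh and 58.7% (54.8 to 62.6%) of the cryopreserved UMIs of the pair in mural-like cells. The keratinocyte-like share was 50.7% (95% interval 48 to 53.4%) of the fresh and 45.4% (43 to 47.8%) of the cryopreserved UMIs. COL4A3, known from the basement membrane of the kidney glomerulus, was rare, with 117 and 103 UMIs in the libraries, and mural-like cells held 27 and 26.1 CPM of it. COL4A4 had 54 and 45 UMIs, of which 44 fresh and 35 cryopreserved UMIs lay in mural-like cells.

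**Figure D2:**
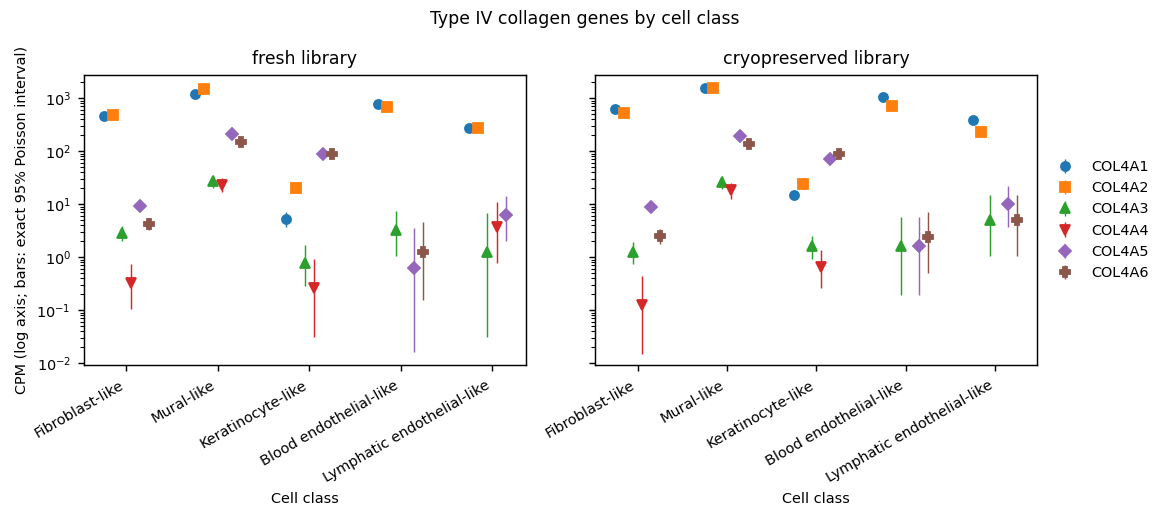
CPM (log axis) of the 6 type IV genes in 5 cell classes of the fresh (left) and cryopreserved (right) library, with exact 95% Poisson intervals as bars and no point for a class without a UMI. COL4A1 and COL4A2 lie together above the other genes in all classes but keratinocyte-like cells, where COL4A5 and COL4A6 lie above them at 71.9 to 89.9 CPM.

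The multiplexins COL18A1 and COL15A1 encode collagens whose ends can be released as antiangiogenic fragments. COL18A1 was spread over vascular and epithelial classes. It was measured at 701 and 716 CPM in mural-like, 615 and 743 CPM in lymphatic endothelial-like, 496 and 581 CPM in blood endothelial-like and 361 and 348 CPM in keratinocyte-like cells, and at 36 and 49 CPM in fibroblast-like cells. Mural-like cells were highest in the fresh library and lymphatic endothelial-like cells in the cryopreserved library, and the intervals of both classes overlapped in either library. As a class, blood endothelial-like cells were highest for COL15A1 at 241 CPM (95% interval 217 to 266) in fresh and 283 CPM (254 to 314) in cryopreserved cells. Fibroblast-like cells had 162 and 186 CPM and keratinocyte-like cells 2.2 and 4.23 CPM. Fibroblast-like cells still held 2508 of the 3037 fresh and 3032 of the 3520 cryopreserved COL15A1 UMIs. Their cluster led by MYOC and FGF10, described below, had 341 and 402 CPM, above blood endothelial-like cells.

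The fibril-associated collagens COL12A1, COL14A1, COL16A1 and COL21A1 were highest in fibroblast-like cells in both libraries. COL12A1 (chromosome 1, 90744409 to 90875127), found on fibrils of tissues under load, was measured at 930.4 CPM (95% interval 915 to 946) in fresh and 745 CPM (732 to 758) in cryopreserved cells. It was also present in mural-like cells at 298 and 316 CPM, in keratinocyte-like cells at 176 and 131 CPM and in blood endothelial-like cells at 82.8 and 123 CPM. COL14A1, a regulator of fibril diameter, had 725 and 703 CPM in fibroblast-like and 34.3 and 31.8 CPM in mural-like cells. COL16A1 had 390.1 and 449.7 CPM in fibroblast-like, 75.9 and 92.7 CPM in mural-like and 55.3 and 53.7 CPM in keratinocyte-like cells. COL21A1 was shared between fibroblast-like cells (101 and 98.2 CPM) and both endothelial classes, with 54.2 and 46.6 CPM in blood and 64.3 and 51.8 CPM in lymphatic endothelial-like cells. Keratinocyte-like cells held 0.905 and 0.47 CPM of it.

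COL19A1 (chromosome 1, 50044394 to 50402256), a fibril-associated gene known from basement membrane zones of muscle and nerve, followed none of these patterns. Mast-like cells held 758 CPM (95% interval 655 to 872) in fresh and 616 CPM (526 to 717) in cryopreserved cells. The next class was dendritic or Langerhans-like at 205 and 91.5 CPM, and within it the small cluster led by CCL22 and MMP9 had 499 and 621 CPM and the cluster led by FLT3 and CD207 had 181 and 56.8 CPM. Mast-like cells were thus highest as a class, while that small cluster reached their level in the cryopreserved library. T or NK-like cells had 75.2 and 39.1 CPM and fibroblast-like cells 24.9 and 14.2 CPM. The mast-like cluster named by KIT, HDC and GATA2 held 68 and 82 cells, and its 5 richest cells carried 47.2% and 50.3% of its COL19A1 UMIs. At 1000 UMIs per cell, COL19A1 was seen in 38.7% (95% interval 26.6 to 51.9%) of fresh and 36.7% (26.1 to 48.3%) of cryopreserved mast-like cells, against 6.21% (2.88 to 11.5%) and 4.35% (2.19 to 7.65%) of T or NK-like cells. Without thinning the mast-like shares were 50% and 57.3%. The annotated gene ends 1098 bases from COL9A1 on the opposite strand, and COL9A1 had 6 and 10 UMIs.

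The minor fibrillar genes COL5A3, COL27A1 and COL11A1 were expressed at lower levels than COL5A1 and COL5A2 in fibroblast-like cells. COL5A3, an alternative chain of type V collagen, was measured at 198 and 185 CPM in fibroblast-like and 146 and 158 CPM in mural-like cells. Set against COL5A1, which had 1287 and 1584 CPM in fibroblast-like and 140.4 and 209 CPM in mural-like cells, COL5A3 made up 13.3% (95% interval 12.9 to 13.8%) of the fresh and 10.5% (10.1 to 10.8%) of the cryopreserved UMIs of both genes in fibroblast-like cells and 51% (95% interval 46.7 to 55.2%) of the fresh and 43% (39.3 to 46.8%) of the cryopreserved UMIs in mural-like cells. COL27A1, a fibrillar collagen of developing cartilage, was highest in mural-like cells at 171 and 119 CPM, above fibroblast-like cells at 70.2 and 57 CPM. COL11A1, a cartilage and tendon collagen, had 9.92 and 13.9 CPM in fibroblast-like cells and 5.56 and 5.92 CPM in keratinocyte-like cells.

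Of the transmembrane collagens, COL25A1 was highest in mural-like cells with 46.8 and 44.3 CPM, against 12.9 and 8.47 CPM in fibroblast-like cells. COL23A1 (chromosome 2, 79766260 to 80141296) had 56 and 16.8 CPM in fibroblast-like, 55.4 and 54.7 CPM in blood endothelial-like and 188 and 18.4 CPM in lymphatic endothelial-like cells. A single fresh lymphatic endothelial-like cell held 143 of the 152 UMIs of that class. COL8A1, a short-chain collagen of vessel walls and cornea, had 37 and 33.3 CPM in fibroblast-like, 27.6 and 11.5 CPM in mural-like and 28.4 and 104 CPM in lymphatic endothelial-like cells, so that fibroblast-like cells were highest in fresh and lymphatic endothelial-like cells in cryopreserved cells. There, 5 cells held 83.9% of the 62 UMIs. COL26A1 was found mainly in fibroblast-like cells at 48.2 and 27 CPM, with at most 3.89 CPM in any other named class.

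The remaining 10 genes had fewer than 200 UMIs, given here as fresh and cryopreserved totals. COL13A1 had 104 and 80 UMIs, COL28A1 57 and 45, COL4A4 the counts given above, COL11A2 17 and 17, COL22A1 11 and 10, COL8A2 7 and 15, COL9A1 6 and 10, COL2A1 1 and 5 and COL10A1 1 and 3. COL9A3 had 0 UMIs in both libraries. COL2A1, COL9A1, COL9A3, COL10A1 and COL11A2, which are best known from cartilage, were thus at or near 0 in these skin cells.

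Shares of cells with at least 1 UMI were compared after each cell was thinned to 1000 UMIs, which left out 27 fresh and 32 cryopreserved cells. COL6A1 was then seen in 87% (84.9 to 88.8%) and 94.7% (93.5 to 95.8%) of fibroblast-like cells, fresh and cryopreserved. In T or NK-like cells it was seen in 3.45% (1.13 to 7.86%) and 1.19% (0.245 to 3.43%). COL4A2 was seen in 69.5% (63.3 to 75.3%) and 70.9% (66 to 75.5%) of mural-like cells and in 0 of 145 and 0 of 253 T or NK-like cells. COL18A1 was seen in 25.8% (22.1 to 29.8%) and 25% (22.4 to 27.7%) of keratinocyte-like cells, above its T or NK-like shares. COL23A1 was seen in 3.11% (2.2 to 4.26%) and 1.87% (1.26 to 2.68%) of fibroblast-like cells and 0% (0 to 2.51%) and 1.19% (0.245 to 3.43%) of T or NK-like cells, and these intervals overlapped in both libraries. Unthinned, COL6A1 was seen in 97.5% and 99.7% of fibroblast-like and 9.66% and 5.14% of T or NK-like cells, whose median UMIs were 12659 and 9967, and 6512 and 4820.

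Fibroblast-like cells fell into 6 clusters. The highest cluster exceeded the lowest 1.71 times for COL6A1 in fresh and 1.67 times in cryopreserved cells, against 28.9 and 27.8 times for COL6A6 and 9.26 and 9.51 times for COL4A2. Of the 21 genes with at least 200 UMIs in fibroblast-like cells, 15 were highest in the same cluster in both libraries. The same share over all genes was not computed. Cluster 0, led by MYOC and FGF10, was highest for COL4A2 (1024 and 1099 CPM, fresh and cryopreserved), COL15A1 (341 and 402 CPM) and COL27A1 (139.9 and 104 CPM). Cluster 1, led by WIF1 and RSPO1, was highest for COL14A1 (1195 and 1279 CPM) and COL21A1 (159.7 and 146 CPM). Cluster 4, led by CTHRC1, ASPN and PI16, was highest for COL12A1 (1521 and 1327 CPM) and COL6A6 (180.02 and 211 CPM). COL4A2 and COL15A1 were lowest in that cluster, where COL4A2 had 111 and 116 CPM and COL15A1 37.2 and 39.4 CPM.

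Cluster 6, led by CCL19 and LEPR, was highest for COL6A5 (105 and 75.2 CPM), COL26A1 (129 and 104 CPM), COL5A3 (296 and 279 CPM) and COL4A5 (30.5 and 28.4 CPM). COL6A5 was at most 8.90 CPM in every other fibroblast-like cluster. COL26A1 was otherwise found in clusters 1 and 18, at 103 and 77.2 and at 50.6 and 53 CPM. Cluster 18, led by ACAN, ITGA8 and TNC, was highest for COL16A1 (789 and 939 CPM), COL6A3 (3250.3 and 3409 CPM), COL23A1 (184 and 163 CPM) and COL11A1 (118 and 253 CPM). COL11A1 was at most 8.21 CPM in the other fibroblast-like clusters. Of the 134 cells of cluster 18, 38 were among the cells with the highest doublet scores, and their part in these levels was not tested. COL6A1 was lowest in cluster 0 at 3067 and 3688 CPM, and highest in cluster 6 in fresh cells (5255 CPM) and in cluster 1 in cryopreserved cells (6155 CPM).

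**Figure D3:**
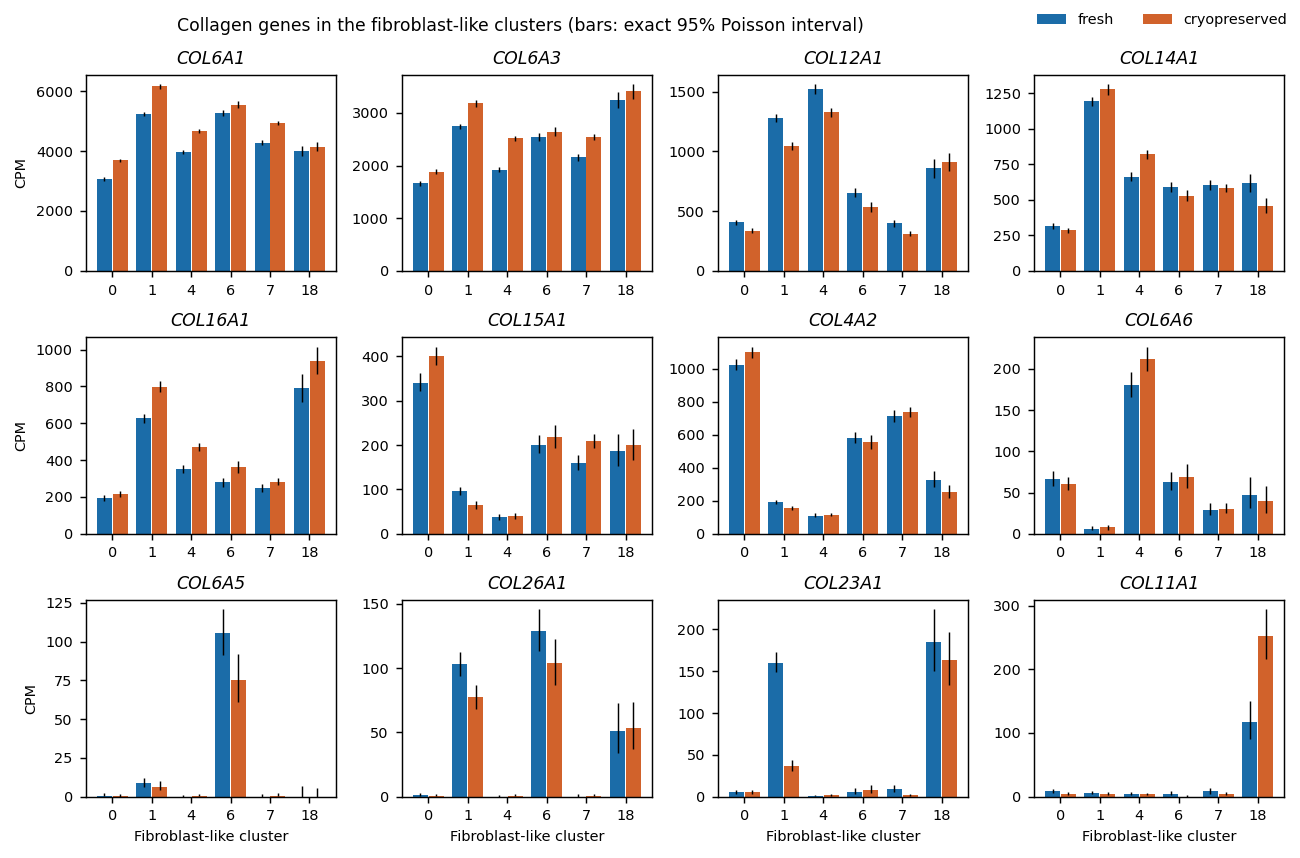
CPM of 12 collagen genes in the 6 fibroblast-like clusters (numbers on the horizontal axes), with bars for the fresh and cryopreserved library and exact 95% Poisson intervals. COL6A6 is highest in cluster 4, COL6A5 in cluster 6 and COL11A1 in cluster 18, and COL23A1 in cluster 1 stands at 160.4 CPM in fresh and 36.6 CPM in cryopreserved cells.

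Mural-like cells formed cluster 8, led by HIGD1B and KCNJ8, which are known from pericytes, and cluster 11, led by the smooth muscle genes CNN1, ACTG2 and MYH11. COL6A3 was 927 and 1054 CPM in cluster 8 and 33.8 and 60.1 CPM in cluster 11, fresh and cryopreserved. COL5A3 differed in the same direction, with 218 and 228 and 57.1 and 40.6 CPM, and COL6A5 was 46.9 and 44 CPM in cluster 8 with 0 UMIs in cluster 11. COL4A3 and COL8A1 were the reverse. COL4A3 had 5.63 and 8.3 CPM in cluster 8 and 53.6 and 55.9 CPM in cluster 11, and COL8A1 0 and 0.83 and 61.8 and 29.4 CPM. COL12A1 (176 and 212 against 450.1 and 491 CPM) and COL18A1 (517 and 603 against 929 and 906 CPM) were also higher in cluster 11, and COL4A2 was higher in cluster 8 with 1700.1 and 1729.8 against 1162 and 1298 CPM.

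Among keratinocyte-like cells, COL18A1, COL12A1, COL4A5 and COL4A6 were highest in cluster 9, led by KRT15 and ASCL2, and lower in cluster 14, led by the differentiation genes KRT1 and KRT10. COL18A1 was 722 and 734 CPM in cluster 9 and 89.7 and 122 CPM in cluster 14. COL12A1 was 309.9 and 247 CPM in cluster 9 and 11.4 and 5.6 CPM in cluster 14. COL4A5 had 149 and 139 CPM and COL4A6 182 and 161 CPM in cluster 9, against 61.2 and 48.2 and 26.3 and 57.7 CPM in cluster 14. COL4A2 was highest in cluster 10, led by PTHLH and SOX9, at 51.8 and 64.8 CPM.

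Whether freezing left the group's levels in place was asked by comparing the libraries. Levels over all cells were scaled with TMM factors, and a log2 ratio above 0 means a higher level in the cryopreserved library. The median log2 ratio of the 23 genes was -0.11 and their median absolute log2 ratio 0.17, against 0.03 and 0.23 for the 11692 genes with at least 200 UMIs. Of the 23 genes, 1 reached a log2 ratio of 1 in either direction, against 1.07% of all genes, and 4 reached 0.5, against 13.1%. All 4 were lower in the cryopreserved library. Of all genes, 4.86% were lower by 0.5 and 0.316% by 1. The counting interval lay below 0 for 11 genes, above 0 for 6, and included 0 for 6, against 29.8% of all genes below and 35.4% above 0. Since the classes take different shares of each library, fewer cells of a class and less RNA of a gene within the class cannot be told apart in these sums.

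**Figure D4:**
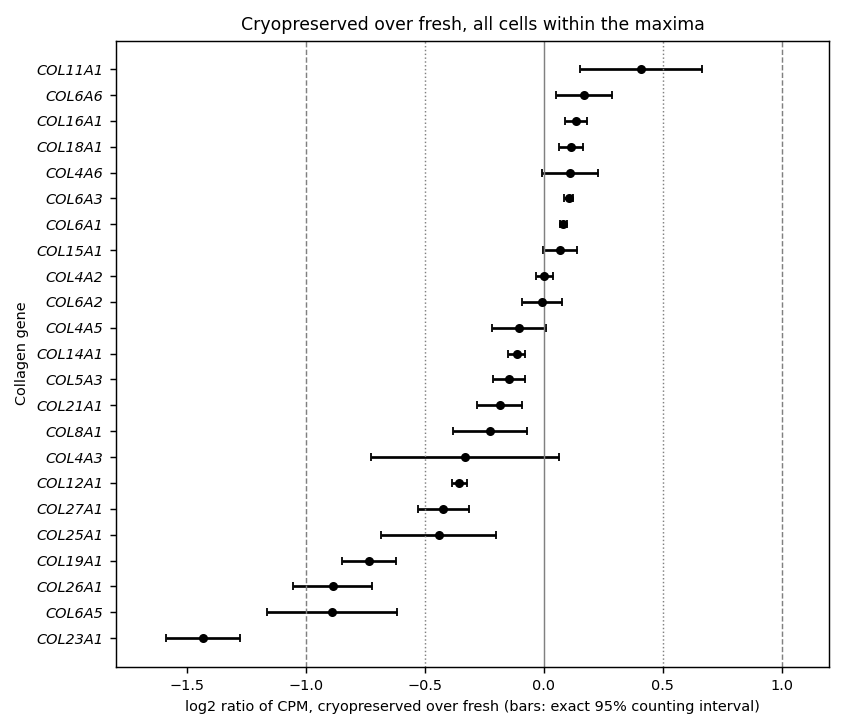
log2 ratio of CPM, cryopreserved over fresh, of the 23 collagen genes over all cells within the maxima (points) with exact 95% counting intervals (bars), and lines at 0, 0.5 and 1 in size. COL23A1 at -1.43 lies alone past 1, COL6A5, COL26A1 and COL19A1 lie between -0.89 and -0.74, and COL11A1 is highest at 0.41.

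The 4 genes past 0.5 were COL23A1, COL6A5, COL26A1 and COL19A1. COL23A1 had 1167 and 478 UMIs, or 35.7 and 13.2 CPM, in the fresh and cryopreserved library, a log2 ratio of -1.43 (95% interval -1.59 to -1.28). COL6A5 had 303 and 181 UMIs (9.26 and 5 CPM), a log2 ratio of -0.89 (95% interval -1.16 to -0.62). COL26A1 had 781 and 467 UMIs (23.9 and 12.9 CPM), a log2 ratio of -0.89 (95% interval -1.06 to -0.72). COL19A1 had 1617 and 1075 UMIs (49.4 and 29.7 CPM), a log2 ratio of -0.74 (95% interval -0.85 to -0.62). The fresh library was the higher one for each of them.

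Over all filtered cells COL6A1, COL6A3, COL6A2 and COL4A2 lay close to 0, whereas COL12A1, with more UMIs than COL4A2, did not. COL6A1 had 2152 and 2278 CPM and a log2 ratio of 0.08 (95% interval 0.07 to 0.10), COL6A3 1122 and 1206 CPM and 0.10, and COL6A2 65 and 64.6 CPM and -0.01. COL4A2 had 359.9 and 360.2 CPM and a log2 ratio of 0.00 (95% interval -0.04 to 0.04), whereas COL4A1 had 339.6 and 413 CPM and 0.28 (95% interval 0.25 to 0.32). COL12A1 was lower in the cryopreserved library, with 512 and 400.2 CPM and a log2 ratio of -0.36 (95% interval -0.39 to -0.32), as were COL27A1 (-0.42), COL25A1 (-0.44), COL8A1 (-0.23), COL21A1 (-0.19), COL5A3 (-0.15) and COL14A1 (-0.11). COL11A1 (0.41 (95% interval 0.15 to 0.66)) was the highest, and COL6A6 (0.17), COL16A1 (0.14) and COL18A1 (0.11) also had intervals above 0. Cluster 18 held 65 of the 216 fresh and 167 of the 317 cryopreserved COL11A1 UMIs. In that cluster 7 cryopreserved cells held 69.5% of the 167 UMIs. For COL4A3 (-0.33), COL4A5 (-0.10), COL4A6 (0.11) and COL15A1 (0.07) the interval included 0. With all barcodes in place of the filtered cells, COL11A1 fell to 0.07, and COL4A3 turned to 0.31 and COL6A6 to -0.08. With all barcodes COL25A1 stood at -0.09 and COL27A1 at -0.22. With the fresh class shares in both libraries COL14A1 turned to 0.01 and COL4A6 to -0.02. In that setting COL8A1 (-0.04), COL21A1 (-0.03) and COL5A3 (-0.02) lay close to 0. COL4A2 ran from -0.04 with total UMIs as the scale to 0.23 with all barcodes, and COL6A2 from -0.05 with total UMIs to 0.13 with the fresh class shares. COL6A1 ran from 0.0005 with all barcodes to 0.22 with the fresh class shares, and COL6A3 from 0.0014 to 0.24. With the fresh class shares COL4A2 stood at 0.18 and COL12A1 at -0.25, so the contrast in size between these genes depended on the setting.

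Within fibroblast-like cells, 5 of the 21 genes with at least 200 UMIs there were lower in the cryopreserved library by at least 0.5 on the log2 scale, against 8.15% of 8882 genes in that class. These were COL23A1 with -1.74 (95% interval -1.94 to -1.54), COL6A5 with -1.06 (95% interval -1.39 to -0.75), COL26A1 with -0.83 (95% interval -1.01 to -0.66), COL19A1 with -0.81 (95% interval -1.05 to -0.57) and COL25A1 with -0.60 (95% interval -0.93 to -0.28). COL23A1 and COL6A5 were past 1 in this class, as were 0.315% of genes lower in the cryopreserved library. The clusters took different shares of the 1195 fresh and 1556 cryopreserved cells of this class. Cluster 1 held 308 and 338 of them, and cluster 6 held 198 and 197. Cluster shares and levels within a cluster cannot be told apart in these ratios. COL23A1 had 160.4 and 36.6 CPM within cluster 1. Within cluster 6, COL6A5 had 105 and 75.2 CPM and COL26A1 129 and 104 CPM. None of the 21 genes was higher by 0.5, and COL11A1 came nearest at 0.49. The share of all genes higher by 0.5 within this class is not given here, so the absence of higher genes cannot be judged against it. COL6A1 and COL6A3 stood at 0.16 and 0.18 in fibroblast-like cells and at 0.36 and 0.37 in mural-like cells. Mural-like cells had 2 of 12 genes past 0.5, both lower, COL19A1 (-0.90) and COL27A1 (-0.52), against 4.12% of 3401 genes lower by 0.5. Keratinocyte-like cells had 2 of 11, both lower, COL19A1 (-0.94) and COL27A1 (-0.58), against 2.04% of 7758 genes lower by 0.5. Blood endothelial-like cells had 1 of 4 genes past 0.5, COL12A1, which was higher at 0.57 (0.15 without the 6% of cells with the highest doublet scores), against 6.28% of 2546 genes higher by 0.5. In dendritic or Langerhans-like cells COL19A1 was lower by over 1 (-1.17), against 1.27% of 2439 genes. COL6A1 also passed 200 UMIs there (-1.59), but 5 cells held 95.8% of its 216 fresh UMIs. Without the 6% of cells with the highest doublet scores COL6A1 had 19 and 11 UMIs, so it was not set against all genes.

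The log2 ratio of COL19A1 was below 0 in every class where it had at least 100 UMIs over both libraries. It was -0.81 in fibroblast-like, -0.90 in mural-like, -0.94 in keratinocyte-like, -1.17 (95% interval -1.45 to -0.89) in dendritic or Langerhans-like, -0.86 in macrophage-like and -0.94 in T or NK-like cells. In mast-like cells, the class with the highest level, it was -0.30 (95% interval -0.61 to 0.01). Its interval there included 0. COL19A1 had 24.9 and 14.2 CPM in fibroblast-like, 35 and 19.3 CPM in macrophage-like and 50.2 and 26.2 CPM in keratinocyte-like cells. These levels lay below the 75.2 and 39.1 CPM of T or NK-like cells, and the part of background RNA in these ratios was not tested. The 5 richest cells held 9.07% and 8.66% of the COL19A1 UMIs of fibroblast-like and 5.15% and 5.38% of those of keratinocyte-like cells, fresh and cryopreserved, but 43.8% and 35.8% in T or NK-like cells. In dendritic or Langerhans-like cells the 5 richest held 38.6% and 35%. In fibroblast-like cells 23.9% of fresh and 12.2% of cryopreserved cells had a UMI, and at 1000 UMIs per cell the shares were 1.34% (0.77 to 2.17%) and 1.29% (0.791 to 1.99%). At that depth COL19A1 was seen in 5.69% (3.87 to 8.03%) and 2.86% (1.94 to 4.06%) of keratinocyte-like and 17.9% (10.8 to 27.1%) and 4.12% (1.67 to 8.3%) of dendritic or Langerhans-like cells, fresh and cryopreserved, with intervals that overlapped in the former and lay apart in the latter. In the dendritic or Langerhans-like cluster led by FLT3 and CD207, 7 of 86 fresh cells had at least 10 COL19A1 UMIs. They held 54.4% of its 239 fresh UMIs, and no cryopreserved cell of that cluster reached 10. The small cluster led by CCL22 and MMP9 had a higher level in the cryopreserved library, as given above, so the class did not differ in 1 direction throughout.

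COL23A1 UMIs in cluster 1 were concentrated in a few cells. In that cluster COL23A1 had 160.4 and 36.6 CPM, fresh and cryopreserved. Cells with at least 10 UMIs of COL23A1 numbered 25 of 308 (8.12%, exact 95% interval 5.32 to 11.7%) in fresh and 3 of 338 (0.888%, interval 0.183 to 2.57%) in cryopreserved cells. They held 82.9% of the cluster's 721 fresh UMIs and 26.4% of its 125 cryopreserved UMIs. The median depth of the cluster was 13875 and 9442.5 UMIs per cell. Cluster 18 had 184 and 163 CPM, and its 3 fresh and 4 cryopreserved cells with at least 10 UMIs held 88.2% and 78.7% of its UMIs. Blood endothelial-like cells had 55.4 and 54.7 CPM, and 1 cell held 33 of their 68 cryopreserved UMIs. Their log2 ratio was -0.02, and -0.66 without the richest cell of each library. Without cluster 1 the log2 ratio of COL23A1 over all cells was -0.56, short of 1, and without cluster 18 it was -1.67. The cells outside cluster 1 include the fresh lymphatic endothelial-like cell with 143 of the gene's 1167 fresh UMIs. The ratio without both that cell and cluster 1 was not computed.

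For COL6A5, cluster 6 held 207 fresh and 98 cryopreserved UMIs, most of the difference in raw UMIs between the libraries. These counts also follow the total UMIs of the cluster, relative to which the level was 105 and 75.2 CPM. Of its 198 fresh and 197 cryopreserved cells, 39.4% (95% interval 32.5 to 46.6%) and 23.9% (18.1 to 30.4%) had a COL6A5 UMI, at median depths of 9854 and 5931 UMIs. Without cluster 6 its log2 ratio was -0.39, short of 0.5. Mural-like cells, highest for COL6A5 as a class but below cluster 6 (105 and 75.2 CPM), had 50 and 53 UMIs. Their log2 ratio was 0.09 (95% interval -0.50 to 0.67). COL26A1 was lower in the cryopreserved library in cluster 1 and in cluster 6, and leaving out either gave log2 ratios of -0.87 and -0.85.

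**Figure D5:**
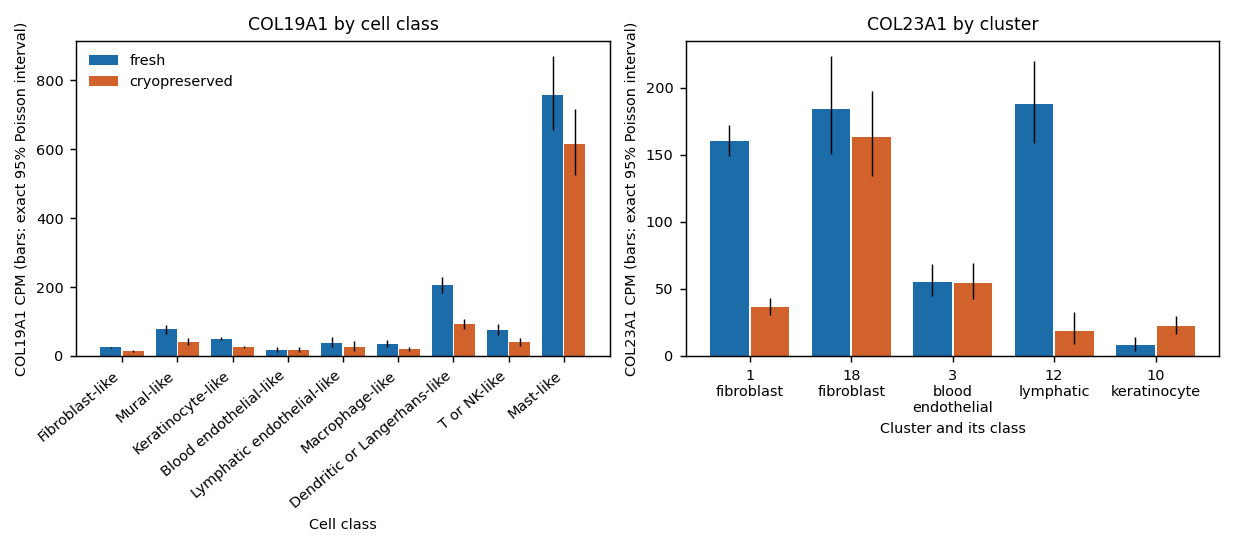
CPM with exact 95% Poisson intervals of COL19A1 in 9 cell classes (left) and of COL23A1 in 5 clusters (right), for the fresh and cryopreserved library. COL19A1 is highest in mast-like cells in both libraries, and COL23A1 differs most between libraries in clusters 1 and 12, where 1 fresh cell holds 143 of 152 UMIs of cluster 12.

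Genes that make and bind collagens were looked at from fixed lists. Of 33 genes for chain modification, folding, secretion, trimming and crosslinking, 30 had at least 200 UMIs. Among these, 1 was higher and 2 were lower by at least 0.5 on the log2 scale, against 8.29% and 4.86% of all genes, none reached 1, and the median log2 ratio was -0.01. Fibroblast-like cells were highest for 19 of the 30 in both libraries, and the same share over all genes was not computed. Of 13 genes listed as collagen receptors, 11 had at least 200 UMIs, with 1 higher and 1 lower by 0.5, and a median log2 ratio of -0.30. Whether each listed gene, CD93 included, binds collagen was not examined here. The counting interval lay below 0 for 8 of the listed receptor genes and above 0 for 1, where 29.8% and 35.4% of all genes lay. These ratios over all cells do not separate class shares from levels within a class. CD93 was at -0.35, but had 215 and 229 CPM in blood endothelial-like cells, its highest class. ANTXR1, ANTXR2, DDR2 and ITGA11 were lower in the cryopreserved library in their highest class too. MRC2 differed little in its highest class, fibroblast-like cells, with 367 and 357 CPM. No counting interval within a class was computed for the receptors.

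The genes of both lists with the highest log2 ratio were P4HB, the beta subunit of prolyl 4-hydroxylase, with 162 and 247 CPM and a log2 ratio of 0.61 (95% interval 0.56 to 0.66), the collagen receptor kinase DDR1 with 30.8 and 46.7 CPM and 0.60 (95% interval 0.49 to 0.71), and the prolyl 3-hydroxylase P3H1 with 215 and 295 CPM and 0.46 (95% interval 0.41 to 0.50). The lowest were TLL1, a procollagen C-proteinase, with 37.9 and 21.7 CPM and -0.81 (95% interval -0.94 to -0.68), ANTXR1, a receptor for type VI collagen, with 341 and 229 CPM and -0.57 (95% interval -0.61 to -0.53), and ADAMTS3, a procollagen N-proteinase, with 27.6 and 19.4 CPM and -0.51 (95% interval -0.65 to -0.36). In both libraries DDR1 was highest in keratinocyte-like cells at 121 and 147 CPM, and ANTXR1 in fibroblast-like cells at 620 and 426 CPM. TLL1 was highest in blood endothelial-like cells at 683 and 531 CPM.

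Genes with the profile most like COL6A1 were sought over 50 profiles, 1 for each of the 25 clusters in each library, by Pearson's r of log2(CPM + 1). Clusters of a library share its depth, and both libraries share the clustering. COL3A1 (0.943), ENSSSCG00000016343 (0.943), FAP (0.943), RARRES2 (0.941) and PRRX1 (0.940) were nearest, and the nearest of the group was COL6A3 (0.930). For COL23A1 the nearest genes were DNM3 (0.690), ITGA9 (0.672), ENSSSCG00000041035 (0.670), ROM1 (0.668) and ACER2 (0.665), and the nearest of the group was COL15A1 (0.526). COL6A1 thus had close neighbours among fibroblast genes, and COL23A1 had none above 0.690.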

How the data were processed

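One droplet scRNA-seq library of fresh and one of cryopreserved pig skin cells were analysed. The authors mapped reads with Cell Ranger 4.0.0 (STAR 2.5.1b) to Sscrofa11.1 with Ensembl genes and deposited raw UMI counts per gene and barcode, without normalization. A UMI counts each captured transcript once at its 3′ end, so levels were not scaled by gene length. They depend on where a gene's end is annotated.

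Cells with at most 4500 genes, 30000 UMIs and 10% mitochondrial UMIs were kept. Counts were summed per library and scaled to CPM with TMM factors (1.013 and 0.987). Within a class, CPM is relative to the class's UMIs. Libraries were integrated with Seurat 5.3.0 (R 4.3.3, 2000 features without collagen genes, 30 dimensions, resolution 0.8). A cluster was named from at least 3 markers seen in 10% of its cells at 2-fold the level elsewhere, and basal and differentiated keratinocyte-like clusters were pooled after the clusters had been seen. Scrublet (Scanpy 1.11.5) marked 3 fresh and 38 cryopreserved cells, under 0.5% of the fresh cells with the caller's own threshold, so the 6% of cells with the highest scores were left out as an alternative instead.

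With 1 library per group no test was run. Levels have exact Poisson intervals, shares and ratios exact Clopper-Pearson intervals at 95%, for counting error only. The interval was tried on simulated counts with independent counting error only. These counts leave out the gathering of UMIs in a few cells, so the interval was not tested for genes such as COL23A1. Alternatives were other scaling factors, other cell filters, the fresh class shares, other minimum counts, other clusterings, and leaving out the richest cell or the highest doublet scores. Genes with at least 200 UMIs over both libraries were named with values. The nearest 5 profiles of COL6A1 and COL23A1 and the 3 highest and 3 lowest of the pathway lists were named too. Members and lists were chosen with earlier results of these data known. Coordinates and sequence are RefSeq's, and 31 of the 33 genes had a placed entry.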

Additional observations from a re-analysis of the deposited data

Results flagged for a closer look

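Several genes had log2 ratios, cryopreserved over fresh, of opposite sign in different cell classes of the same pair of libraries. With 1 library per group none of these differences between classes was tested. COL6A1 was higher in the cryopreserved library in blood endothelial-like cells (3.95) and macrophage-like cells (1.88), and lower in dendritic or Langerhans-like (-1.59) and T or NK-like cells (-1.93). The 5 richest cells held 91.8% of the cryopreserved UMIs of blood endothelial-like and 85.5% of those of macrophage-like cells, and 95.8% of the fresh UMIs of dendritic or Langerhans-like and 88.9% of those of T or NK-like cells. COL6A3 followed, at 2.43 in blood endothelial-like and 1.38 in macrophage-like cells against -1.06 in dendritic or Langerhans-like cells. COL1A1, which is no member, moved in the same classes, at 3.84, 1.14 and -1.64 in turn. Without the 6% of cells with the highest doublet scores, COL6A1 stood at 0.58 in blood endothelial-like, -0.87 in macrophage-like, -1.15 in dendritic or Langerhans-like and -0.27 in T or NK-like cells. COL6A3 then stood at -0.85 in blood endothelial-like, -0.44 in macrophage-like and -0.23 in dendritic or Langerhans-like cells, so its values above 0 turned negative. COL1A1 stood at 0.15, -0.99 and -1.27 in the same classes.

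COL23A1 was higher in the cryopreserved library in keratinocyte-like cells (1.09, 27 and 79 UMIs) and lower in fibroblast-like (-1.74) and lymphatic endothelial-like cells (-3.35). The lymphatic endothelial-like value rests on 1 cell and was 0.43 without the richest cell of each library and 0.90 without the highest doublet scores, so the opposite sign did not hold there, while fibroblast-like cells stood at -1.77 and -2.00. The keratinocyte-like value was 1.29 without the richest cell of each library. COL8A1 was higher in lymphatic endothelial-like cells (1.87, 23 and 62 UMIs) and lower in mural-like cells (-1.27, 53 and 22 UMIs). The 5 richest cells held 83.9% of the cryopreserved lymphatic endothelial-like and 75.5% of the fresh mural-like UMIs of COL8A1.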

How the results depend on the processing

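The number of collagen genes past a log2 ratio of 1 (1 gene) and of 0.5 (4 genes) changed by over 1.5 times only where genes with at least 1 UMI in each library were counted, to 3 and 9. The median absolute log2 ratio of 0.17 became 0.24 with the fresh class shares in both libraries and 0.31 with at least 1 UMI. The median log2 ratio of -0.11 became -0.022 with the fresh class shares and -0.17 with at least 50 UMIs. COL23A1 ranged from -1.47 to -1.17, COL6A5 from -0.93 to -0.62, COL26A1 from -0.93 to -0.62 and COL19A1 from -0.77 to -0.67 over the settings fixed at the start. Among alternatives added after seeing the data, the log2 ratio of COL23A1 in lymphatic endothelial-like cells (-3.35) reversed to 0.43 without the cell with most UMIs and to 0.90 without the highest doublet scores, because that cell held 143 of the 152 fresh UMIs. The highest class of a gene was unchanged for all 23 genes at resolutions 0.4 and 1.2, without integration and with collagen genes among the features, and for 22 without the highest doublet scores, the exception being COL23A1. No paired analysis was possible because each group has 1 library. Depth limits the 10 genes under 200 UMIs and every class with few cells.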
